A study of Homo sapiens with 6 samples.

Results

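Serine is made from a glycolytic intermediate in a short route that needs PHGDH, PSAT1 and PSPH, and its side-chain carbon is then passed to folate by SHMT1 in the cytosol or SHMT2 in mitochondria. MTHFD1 in the cytosol and MTHFD2 and MTHFD1L in mitochondria interconvert and release these folate-bound carbons, which are used to build purines, thymidylate and methyl groups. ALDH1L2 oxidises a formyl-folate in mitochondria, and ASNS makes asparagine from aspartate and glutamine. Several of these genes are known targets of the transcription factor ATF4, which is translated when amino acids are short. The 10 genes PHGDH, PSAT1, PSPH, SHMT1, SHMT2, MTHFD1, MTHFD1L, MTHFD2, ASNS and ALDH1L2 were taken by name from the 16311 genes of the deposited table, and each had 1 row. They were chosen with their counts in FIR and untreated cells known, so their own differences between these groups are given as a description and support nothing.

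RNA was sequenced from LNCaP, an established line of androgen-sensitive human prostate adenocarcinoma cells grown in RPMI1640 medium with serum. FIR cells (n = 3 libraries) had received a cumulative dose of 40 Gy, and untreated cells (n = 3 libraries) had not. The labels do not spell out FIR, which the series title ties to radiation, and do not say how the dose was divided or give the time from the last dose to harvest. Both groups come from 1 cell line, and replicates are titled BR1 to BR3 without a statement of what BR stands for or that cultures were separate, so part or all of the spread behind a p-value may be technical. Libraries of 1 group differed by more than counting noise, with a chi-square per degree of freedom over genes of 4.82 to 14.9 between pairs.

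Totals over the listed genes were 15703483 to 16542096 reads in FIR libraries and 16805679 to 21004697 reads in untreated libraries. All 9 prostate luminal markers checked were expressed in both groups. Of 16 markers of blood, stromal, endothelial and basal cells 12 had no row. The other 4 summed to 14.0 to 16.4 CPM, reads scaled to the same library total in FIR libraries and 55.0 to 69.4 CPM in untreated libraries, and their part in the results was not tested. They did not move together. COL1A1 (5.33 CPM in FIR cells, 24.0 CPM in untreated cells) and VWF (5.78 CPM in FIR cells, 36.3 CPM in untreated cells) fell. The basal marker KRT14 rose to 3.49 CPM in FIR cells, against 1.61 CPM in untreated cells (log2 fold change 1.13, edgeR adjusted p = 0.0047). PDGFRB, at 0.901 CPM in FIR cells and 1.02 CPM in untreated cells, did not pass. The 8 proliferation markers checked fell, and summed to 142 to 151 CPM in FIR libraries and 917 to 1319 CPM in untreated libraries. MKI67 was at 3.06, 5.12 and 2.77 CPM in FIR cells and at 177, 178 and 117 CPM in untreated cells. Untreated replicate 3 stood below the other untreated libraries in all 8 of these markers.

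All 10 genes together held 791, 848 and 786 CPM in FIR libraries and 2058, 2100 and 2418 CPM in untreated libraries. In 9 of the 10 genes every FIR library lay below every untreated library, and ALDH1L2 was the exception. Such separation in the same direction held for 27.5% of all genes tested. With edgeR's quasi-likelihood test, 9 of the 10 genes were lower in FIR cells at an adjusted p of 0.05, where 23.4% of all genes tested were (48.7% were past it in either direction). Of these 9 genes 7 had a log2 fold change of -1 or below, as had 7.37% of all genes tested with an adjusted p of 0.05. Since the genes were picked on this contrast, nothing is read from these counts. In bulk RNA, fewer expressing cells and less RNA per cell cannot be told apart.

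**Figure D1:**
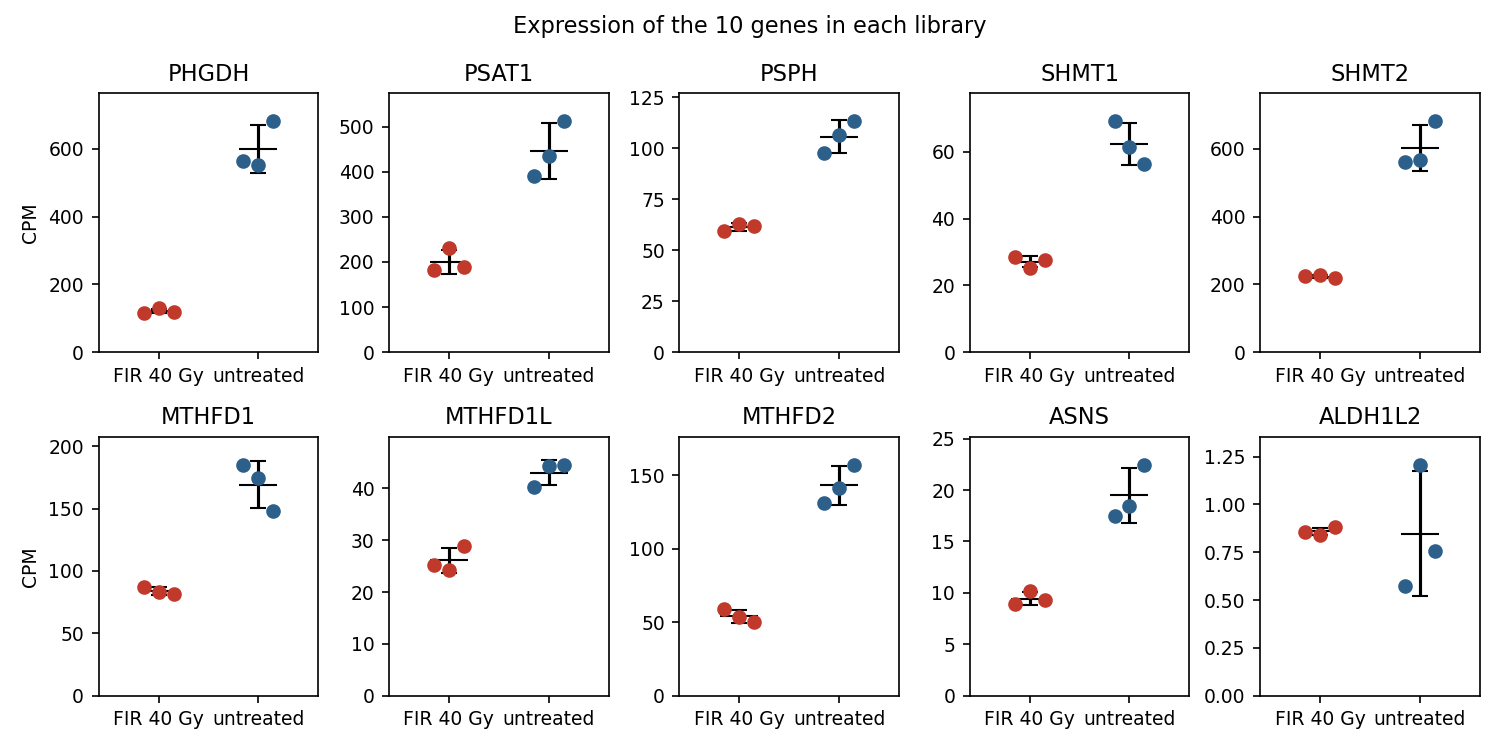
CPM of each of the 10 genes in each library, FIR cells on the left (red) and untreated cells on the right (blue), with the mean as a dash and bars of 1 SD (n = 3 each). The y axes start at 0 and differ between genes. FIR libraries lie below untreated libraries in 9 panels, and the groups overlap in ALDH1L2.

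Promoter sequences are given as a description, and their part in the differences between groups was not tested. RefSeq windows on GRCh38.p14, from 250 bases before a transcript's start to 50 after it, were at hand for 7 of the 10 genes. These were PHGDH, PSAT1, SHMT1, MTHFD1, MTHFD1L, MTHFD2 and ASNS. Each was searched on both strands for TGATGNAA, a composite element bound by ATF4, and for the E-box CACGTG, which are in capitals below. ASNS and MTHFD1L held the first, MTHFD1 and MTHFD1L the second, and PHGDH, shown for its large difference, held neither. The windows are ASNS chr7:97872359-97872658 (minus strand), MTHFD1L chr6:150866236-150866535 (plus), MTHFD1 chr14:64388103-64388402 (plus) and PHGDH chr1:119711684-119711983 (plus).
ASNS: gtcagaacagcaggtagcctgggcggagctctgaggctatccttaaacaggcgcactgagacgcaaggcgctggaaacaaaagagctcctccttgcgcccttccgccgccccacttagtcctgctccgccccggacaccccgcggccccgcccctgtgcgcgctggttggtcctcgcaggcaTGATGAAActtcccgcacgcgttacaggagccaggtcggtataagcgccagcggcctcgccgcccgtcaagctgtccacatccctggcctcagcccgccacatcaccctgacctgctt
MTHFD1L: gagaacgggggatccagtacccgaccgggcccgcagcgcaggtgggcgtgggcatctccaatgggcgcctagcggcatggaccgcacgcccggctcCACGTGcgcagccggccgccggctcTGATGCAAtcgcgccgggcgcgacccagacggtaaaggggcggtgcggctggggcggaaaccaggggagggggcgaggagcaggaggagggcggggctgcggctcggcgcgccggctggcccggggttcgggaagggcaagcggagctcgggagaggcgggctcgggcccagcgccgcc
MTHFD1: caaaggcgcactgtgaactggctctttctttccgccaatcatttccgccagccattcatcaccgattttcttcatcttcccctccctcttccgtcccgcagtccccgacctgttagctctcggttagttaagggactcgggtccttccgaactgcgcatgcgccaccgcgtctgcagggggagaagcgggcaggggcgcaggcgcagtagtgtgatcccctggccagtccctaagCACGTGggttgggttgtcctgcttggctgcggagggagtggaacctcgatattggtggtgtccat
PHGDH: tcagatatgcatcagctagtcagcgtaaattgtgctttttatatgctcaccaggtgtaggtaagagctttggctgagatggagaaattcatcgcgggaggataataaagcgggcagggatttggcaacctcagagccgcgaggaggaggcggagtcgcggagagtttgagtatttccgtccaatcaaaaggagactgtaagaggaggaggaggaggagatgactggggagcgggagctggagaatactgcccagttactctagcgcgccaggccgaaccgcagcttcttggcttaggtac

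The ATF4 element was in 2 of these 7 genes and in 4.46% of 27305 genes with a window, and the E-box in 2 of 7 and in 8.77%. In ASNS the element began at position -68 from the start, and TTCCCGC, which resembles an E2F site, followed with 1 base between them. That motif was in 1 of the 7 genes and in 7.82% of all. TGACNNNGC, an antioxidant element, was in MTHFD2 alone among the 7 and in 16.1% of all genes. CCAAT was in 6 of the 7, all but ASNS, and in 39.7% of all genes. Of the 4 windows of MTHFD1L 3 overlap and held the same matches, and the remaining window held none of these motifs. ASNS also has another window (chromosome 7, 97872116 to 97872415), which held none of them. A match is only a match of letters in this window, and other windows of the same genes are not described by it.

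PHGDH, the dehydrogenase that commits carbon to serine synthesis (chromosome 1, 119648411 to 119744226 on hg38), had the largest difference of the 10. It stood at 116, 130 and 119 CPM in FIR libraries and at 566, 552 and 682 CPM in untreated libraries. The groups were far apart, and untreated replicate 3 was the highest. PHGDH averaged 122 ± 6.92 CPM in FIR cells and 600 ± 71.3 CPM in untreated cells (SD, n = 3 each), 4.92 times lower, with a log2 fold change of -2.30 (SE 0.09).

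PSAT1, the aminotransferase of the second step (chromosome 9, 78297125 to 78330093), had 182, 230 and 189 CPM in FIR libraries and 390, 434 and 512 CPM in untreated libraries. The log2 fold change of PSAT1 was -1.15 (SE 0.11), and its libraries were more spread within each group than those of PSPH. PSPH, the phosphatase that releases serine (chromosome 7, 56011051 to 56051604), had 59.4, 63.0 and 61.8 CPM in FIR libraries and 97.4, 106 and 113 CPM in untreated libraries. At -0.78 (SE 0.08) its log2 fold change was the smallest of the serine route. PSPH has a copy, PSPHP1, with which it may share reads, at 9.69 ± 0.89 CPM in FIR cells and 9.02 ± 0.90 CPM in untreated cells (SD, n = 3 each). With the reads of both summed, the log2 fold change was -0.69.

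The ratio between enzymes of one route does not depend on library scaling. PHGDH over PSPH, in RPKM, which divides scaled reads by gene length, was 0.587, 0.616 and 0.579 in FIR libraries and 1.74, 1.55 and 1.80 in untreated libraries. PHGDH over PSAT1 was 0.153, 0.135 and 0.152 in FIR libraries and 0.347, 0.304 and 0.319 in untreated libraries. Neither ratio overlapped between groups, which, like the single genes, is a description of values that chose these genes.

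SHMT2, the mitochondrial serine hydroxymethyltransferase (chromosome 12, 57229573 to 57234935), had 224, 228 and 218 CPM in FIR libraries and 561, 566 and 682 CPM in untreated libraries. SHMT2 had a log2 fold change of -1.43 (SE 0.08), and FIR libraries lay close together. SHMT1, its cytosolic counterpart (chromosome 17, 18327860 to 18363563), had 28.5, 25.2 and 27.5 CPM in FIR libraries and 69.1, 61.4 and 56.4 CPM in untreated libraries. SHMT1 had a log2 fold change of -1.20 (SE 0.10), and here untreated replicate 3 was the lowest untreated library. The RPKM of SHMT2 over that of SHMT1 was 12.4, 14.3 and 12.5 in FIR libraries and 12.8, 14.6 and 19.1 in untreated libraries. These ranges overlapped.

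MTHFD2, a mitochondrial methylene-folate dehydrogenase (chromosome 2, 74198610 to 74217565), had 58.8, 53.7 and 49.9 CPM in FIR libraries and 131, 142 and 157 CPM in untreated libraries, with a log2 fold change of -1.40 (SE 0.09). MTHFD1L, which releases formate in mitochondria (chromosome 6, 150865549 to 151101887), had 25.3, 24.2 and 28.8 CPM in FIR libraries and 40.2, 44.4 and 44.6 CPM in untreated libraries. MTHFD1L had the smallest difference of the 9 genes with separate groups, a log2 fold change of -0.72 (SE 0.10). MTHFD1, the cytosolic enzyme that holds several of these activities in 1 protein (chromosome 14, 64388031 to 64463457), had 87.4, 83.1 and 81.4 CPM in FIR libraries and 185, 174 and 148 CPM in untreated libraries. Its log2 fold change was -1.01 (SE 0.09). Like SHMT1, MTHFD1 was lowest in replicate 3 among the untreated libraries.

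Per length, MTHFD2 over MTHFD1 was 1.71, 1.64 and 1.55 in FIR libraries and 1.79, 2.06 and 2.69 in untreated libraries, without overlap. MTHFD1L over MTHFD1 was 0.705, 0.711 and 0.863 in FIR libraries and 0.529, 0.620 and 0.734 in untreated libraries, with overlap. The gap between groups in the first ratio was small beside the spread of its untreated libraries.

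ASNS, asparagine synthetase (chromosome 7, 97851677 to 97872542), had 8.87, 10.2 and 9.31 CPM in FIR libraries and 17.5, 18.4 and 22.5 CPM in untreated libraries. Its log2 fold change was -1.04 (SE 0.14). A copy, ASNSP1, with which it may share reads, had 1.85 ± 0.57 CPM in FIR cells and 6.25 ± 1.54 CPM in untreated cells (SD, n = 3 each). Summed with that copy, ASNS had a log2 fold change of -1.19. On the same strand AC079781.5, at 1.72 CPM in FIR cells and 1.19 CPM in untreated cells, overlaps nearly all of the span of ASNS. How reads in shared exons were assigned is not given, and the effect of this overlap on the level of ASNS was not tested.

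ALDH1L2, the mitochondrial formyl-folate dehydrogenase (chromosome 12, 105019784 to 105107643), was scarce, with 14, 13 and 14 reads in FIR libraries and 11, 26 and 13 reads in untreated libraries. That is 0.856, 0.842 and 0.880 CPM in FIR cells and 0.574, 1.21 and 0.759 CPM in untreated cells. The groups overlapped, and the log2 fold change of 0.01 had an SE of 0.40, so a difference of moderate size in either direction could not be seen at this depth. Its annotated span overlaps C12orf45 and WASHC4 on the opposite strand, at 66.4 and 57.7 CPM in FIR cells and 40.6 and 56.5 CPM in untreated cells. The strand setting of the counting is not given in the sources used here.

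**Figure D2:**
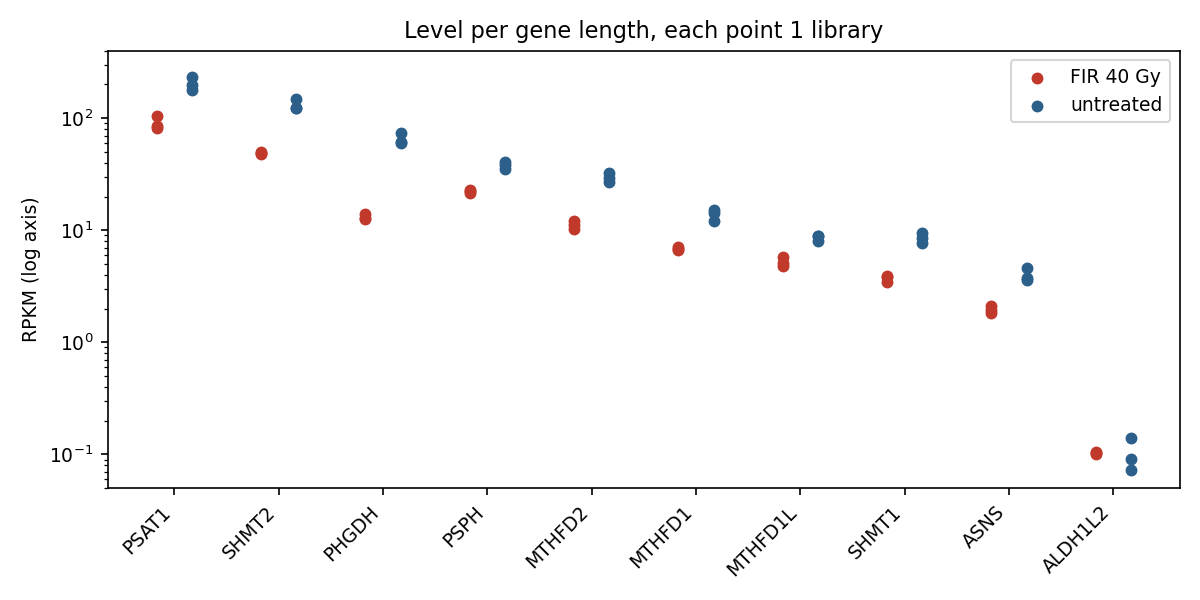
RPKM of each of the 10 genes from the authors' deposited values, on a log axis, FIR cells (red) left of untreated cells (blue), 1 point a library. Genes run by their untreated mean, from PSAT1 at 202 RPKM to ALDH1L2 at 0.101 RPKM, and PHGDH stands below PSPH in FIR cells and above it in untreated cells.

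Levels per gene length, from the authors' deposited log2 RPKM, spanned a wide range. PSAT1 had the highest level, 90.8 ± 11.8 RPKM in FIR cells and 202 ± 27.9 RPKM in untreated cells (SD, n = 3 each). SHMT2 followed at 48.6 ± 1.07 RPKM in FIR cells and 131 ± 14.9 RPKM in untreated cells. After these came PSPH, PHGDH, MTHFD2, MTHFD1, MTHFD1L, SHMT1, ASNS and ALDH1L2 in FIR cells. The order in untreated cells differed in 1 place, with PHGDH above PSPH. PHGDH was at 13.2 ± 0.75 RPKM in FIR cells and 65.1 ± 7.74 RPKM in untreated cells, and PSPH at 22.3 ± 0.67 RPKM in FIR cells and 38.3 ± 2.86 RPKM in untreated cells. Neighbours in the order did not overlap, except MTHFD1L and SHMT1 in untreated cells. The length counted for PHGDH was 9217 bases, that for PSPH 2762 bases and that for PSAT1 2206 bases, and a longer counted length lowers an RPKM. In CPM, without division by length, PHGDH stood above PSPH in both groups. The means were 122 against 61.4 CPM in FIR cells and 600 against 106 CPM in untreated cells. The place of PHGDH relative to PSPH in FIR cells thus depends on the lengths counted.

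Within the untreated group the 10 genes did not vary together. Replicate 3 was the highest untreated library for PHGDH, PSAT1, PSPH, SHMT2, MTHFD2, ASNS and MTHFD1L, and the lowest for SHMT1 and MTHFD1. In log2 CPM against the group mean, replicate 3 was at 0.19 for PHGDH, 0.21 for PSAT1 and 0.21 for ASNS, but at -0.14 for SHMT1 and -0.19 for MTHFD1. In the same library the median of 29 measured ATF4 pathway genes was 0.15, with 21 of them above their group mean. That of 13 purine synthesis genes was -0.12, and that of the 8 proliferation markers -0.39. Medians there were -0.01 for other folate genes, 0.03 for methionine and transsulfuration and 0.02 for serine transport and use. They were 0.01 for asparagine, aspartate and glutamine genes, 0.02 for the prostate luminal markers and 0.27 for the 4 measured markers of other cell types. In FIR libraries the largest deviation among the same 9 genes was 0.21, for PSAT1 in replicate 2, which was the highest FIR library for PHGDH, PSAT1, PSPH, ASNS and SHMT2. With 3 libraries a group these are single values, given as a description.

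**Figure D3:**
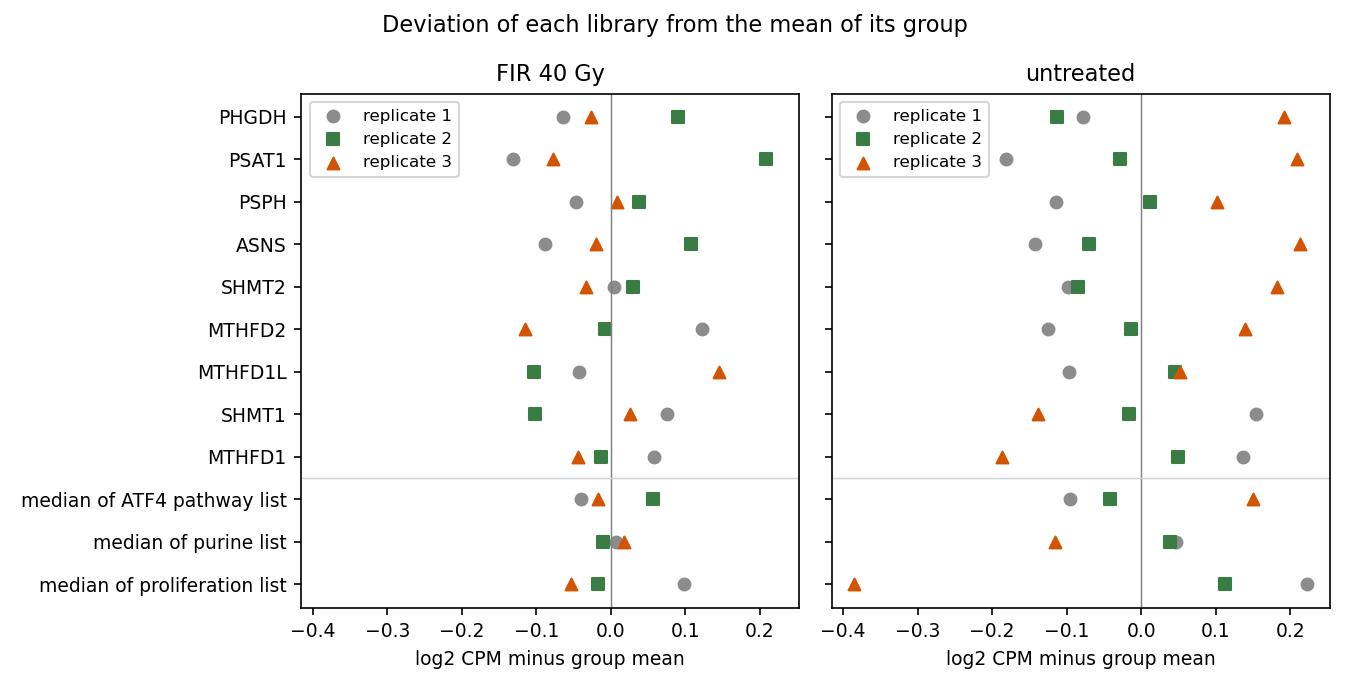
Log2 CPM of each library minus the mean of its group, for 9 of the 10 genes (above the line) and for the median of 3 gene lists (below it), FIR cells left and untreated cells right. In untreated replicate 3 (triangles) SHMT1, MTHFD1, the purine list and the proliferation list lie left of 0 and the other genes and the ATF4 list right of 0.

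**Figure D4:**
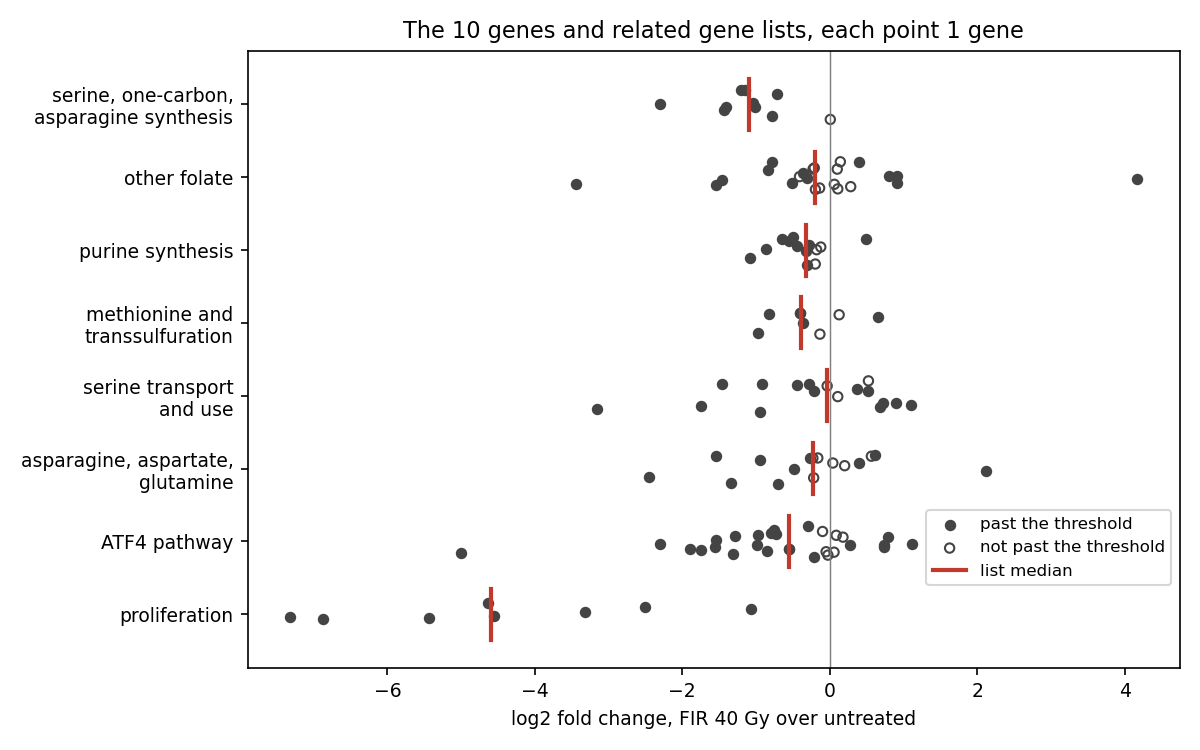
Log2 fold change of FIR over untreated cells for each measured gene of the 10 and of 7 related lists, 1 point a gene, filled where the adjusted p was 0.05 or less. Red bars are list medians, from -4.59 for proliferation to -0.04 for serine transport and use, with -1.10 for the 10 genes.

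Related genes were read from lists written with earlier results of these data known, beside a median log2 fold change of 0.01 over all genes tested. Of these, 23.4% fell and 25.4% rose. Of 23 other folate genes measured, 8 fell, 5 rose and 10 did not pass, with a median of -0.19. ALDH1L1, the cytosolic counterpart of ALDH1L2, rose to 14.0, 14.6 and 15.7 CPM in FIR libraries, against 1.10, 0.696 and 0.642 CPM in untreated libraries. Its log2 fold change was 4.17 (SE 0.22, edgeR adjusted p = 6.5e-10), and the groups were far apart.

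GGH, which trims glutamates from folates, fell to 1.84, 3.30 and 2.70 CPM in FIR libraries, against 27.3, 27.0 and 31.1 CPM in untreated libraries, by 3.45 on the log2 scale (SE 0.18, edgeR adjusted p = 5.9e-10). TYMS, which makes thymidylate from folate-bound carbon, fell to 14.7, 15.9 and 15.6 CPM in FIR libraries, against 56.1, 44.2 and 34.1 CPM in untreated libraries (log2 fold change -1.54, SE 0.15, edgeR adjusted p = 7.2e-07). TYMS was lowest in replicate 3 among untreated libraries, as the proliferation markers were. MTHFD2L, the paralog of MTHFD2, had 18.2, 19.0 and 16.8 CPM in FIR libraries and 19.1, 20.3 and 23.8 CPM in untreated libraries, a log2 fold change of -0.23 (SE 0.12) that did not pass (edgeR adjusted p = 0.139). Sideroflexins, mitochondrial carriers of which SFXN1 is known to import serine, divided, with SFXN1 at -0.84 and SFXN3 at 0.81. FOLH1, the folate hydrolase known as prostate-specific membrane antigen, rose to 1662 ± 198 CPM in FIR cells, against 1261 ± 187 CPM in untreated cells (edgeR adjusted p = 0.0050).

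Purine synthesis spends formyl groups carried by folate. Of its 13 genes 9 fell, 1 rose and 3 did not pass, with a median of -0.33. GMPS, which makes GMP, fell to 63.6 ± 3.83 CPM in FIR cells, against 134 ± 15.3 CPM in untreated cells (SD, n = 3 each). PFAS and IMPDH1 fell by 0.86 and by 0.65 on the log2 scale. GART and ATIC, the enzymes that use the formyl carrier directly, had the smaller log2 fold changes of -0.31 (SE 0.09) and -0.28 (SE 0.07). The 1 rise, that of ADSS1 (ADSSL1 in the table, log2 fold change 0.49), was lost without untreated replicate 2, which left 0.

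Among 8 measured genes of the methionine cycle and transsulfuration 5 fell, 1 rose and 2 did not pass, with a median of -0.38. CBS, which joins serine to homocysteine, fell to 51.5 ± 5.44 CPM in FIR cells, against 91.4 ± 7.67 CPM in untreated cells, and CTH, the next enzyme, fell by 0.97 on the log2 scale (SE 0.17). GNMT, a glycine methyltransferase, rose, with a log2 fold change of 0.66 and an SE of 0.16.

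Transport and use of serine moved in both directions. Of 17 measured genes 8 fell, 6 rose and 3 did not pass, with a median of -0.04, and 5 fell without untreated replicate 2. SLC1A5, a carrier of glutamine and other neutral amino acids, fell to 18.8, 24.7 and 20.1 CPM in FIR libraries, against 180, 179 and 207 CPM in untreated libraries. Its log2 fold change was -3.15 (SE 0.11, edgeR adjusted p = 8.2e-12). SLC1A4, a serine and alanine carrier, fell by 1.74 on the log2 scale (SE 0.14) and the glycine transporter SLC6A9 fell by 1.46 (SE 0.14). Rises were those of SERINC1, SERINC2 and SERINC3, membrane proteins named for serine incorporation, SPTLC2 of sphingolipid synthesis, PTDSS2 and SDSL. Their log2 fold changes ran from 0.37 to 1.10. Of the same families SPTLC3 and PTDSS1 fell, with log2 fold changes of -0.94 and -0.21, and SPTLC1 and SERINC5 did not pass.

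Of 16 genes of asparagine, aspartate and glutamine 7 fell, 3 rose and 6 did not pass, with a median of -0.22. ASPG, an asparaginase, was scarce and rose to 4.59, 3.63 and 3.90 CPM in FIR libraries, against 1.41, 0.371 and 1.05 CPM in untreated libraries (log2 fold change 2.11, SE 0.36). ASRGL1, another enzyme that cleaves asparagine, fell to 4.24 ± 1.79 CPM in FIR cells, against 12.3 ± 3.87 CPM in untreated cells (SD, n = 3 each). ASS1, which uses aspartate to make argininosuccinate, fell by 1.33 on the log2 scale (SE 0.14). NARS1 (NARS in the table), the asparaginyl-tRNA synthetase, fell by 0.48 (SE 0.08), while GLUL, which makes glutamine, rose, with a log2 fold change of 0.62 and an SE of 0.07.

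Of 29 measured genes of the ATF4 pathway 18 fell, 5 rose and 6 did not pass, with a median of -0.56. ATF4 itself was at 336, 387 and 359 CPM in FIR libraries and at 487, 496 and 610 CPM in untreated libraries, without overlap. Its log2 fold change was -0.56 (SE 0.09, edgeR adjusted p = 1.2e-04), and as a factor controlled by translation its RNA does not give its protein. CHAC1, which degrades glutathione, fell to 5.61 ± 0.59 CPM in FIR cells, against 27.8 ± 6.51 CPM in untreated cells (SD, n = 3 each). SLC7A5 and SLC7A11, amino acid exchangers, fell by 1.90 (SE 0.13) and by 1.74 (SE 0.12) on the log2 scale. The stress-linked factors divided. TRIB3 and ATF5 fell by 1.29 and by 1.31, ATF3 rose, at a log2 fold change of 1.11 with an SE of 0.10, and DDIT3 had a log2 fold change of 0.18 (SE 0.20) that did not pass. Among the kinases upstream of ATF4, EIF2AK3 and EIF2AK2 rose, with log2 fold changes of 0.74 and 0.28, and EIF2AK1 and EIF2AK4 stood at 0.06 and 0.09 and did not pass. The part of the lower proliferation markers in these differences was not tested.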

How the data were processed

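RNA sequencing of 6 LNCaP libraries, 3 FIR and 3 untreated, was deposited as 1 table. Its values, as the authors deposited them, are raw counts of reads for each gene, log2 RPKM per library, a counted length per gene, and log2 fold changes with raw and adjusted p-values, as its header shows. The 6 columns of log2 CPM were not used. The submitters' processing notes name STAR 2.5, featureCounts, Subread 1.6.2, edgeR 3.20.8 and hg38. The sources used here do not give an annotation release, strand setting or low-gene filter. No gene was under 0.6 CPM in more than 3 libraries, which shows an earlier filter on low genes.

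Counts were scaled by TMM and fitted in edgeR 4.0.16 (glmQLFit, glmQLFTest) under R 4.3.3 with a single term for group, followed by adjustment of p-values by Benjamini-Hochberg over all 16311 genes at 0.05. filterByExpr with a minimum count of 10 removed 0 genes. SE is the log2 fold change over the square root of F. CPM values use TMM-scaled totals, and deviations use log2 CPM with a prior count of 2. The authors' deposited table gave log2 fold changes within 0.0011 of these for the 10 genes. The code was tested on simulated counts. Low counts carry counting error, as 3 reads are 0.143 to 0.191 CPM.

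The 10 genes and the lists were chosen with earlier results of these data known. Genes were named by rule: the 10, a set group (with ATF4, MTHFD2L, TYMS, FOLH1 and MKI67), and from each of 6 lists the 3 called genes that changed most, leaving out means under 1 CPM. A gene that the rule names is not reported here. Any further gene was picked with its values in view. A planned comparison of protein sequences was not run. Alternatives were DESeq2 1.42.0, limma-voom (limma 3.58.1), scaling by library size, RLE or upper quartile, no filter or 1 CPM in 3 libraries, a replicate block, leaving out each library, RPKM from TMM-scaled CPM and a stricter motif, and, added after seeing the data, summing ASNS and PSPH with their copies.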

Additional observations from a re-analysis of the deposited data

How the results depend on the processing

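The 9 genes lower in FIR cells stayed lower and past the threshold under every alternative run, with log2 fold changes of -2.37 to -2.22 for PHGDH at one end and -0.80 to -0.67 for MTHFD1L at the other. ALDH1L2 ranged from -0.22 to 0.36, never past the threshold, and had no value under a filter of 1 CPM in 3 libraries. Over all genes 3401 to 4162 were higher and 3368 to 4346 lower. Library-size scaling gave 3685 higher and 4346 lower. Median log2 fold changes of all genes stayed within 0.1 of 0 in each setting. A replicate block gave 3988 genes higher, 3668 lower and 9 of the 10 lower. Libraries sharing a number had deviations that correlated at 0.03, -0.05 and -0.07, and other pairs at -0.11 to 0.14. With 3 libraries a group these values cannot tell whether libraries sharing a number were paired. Leaving out 1 library gave 0 to 1 purine genes higher and 5 to 8 serine transport and use genes lower, both lowest without untreated replicate 2, where the cause was not tested. The purine gene lost there was ADSS1, and no gene named by the rule lost, gained or reversed a call. The stricter TGATGCAA was in 1 of the 7 genes with a window, MTHFD1L, in place of 2, since ASNS has another base there. RPKM from TMM-scaled CPM put ALDH1L2 at 0.0906 in FIR cells, in place of 0.103.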

Other observations

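Genes next to the 10 were read from the deposited coordinates, taking rows whose span came within 1000 bases. CCT6A, a chaperonin subunit that lies beside PSPH on the opposite strand, had 381 ± 13.2 CPM in FIR cells and 491 ± 57.7 CPM in untreated cells (SD, n = 3 each), a log2 fold change of -0.37 (SE 0.09, edgeR adjusted p = 0.0023). NDUFA4L2, which overlaps only the end of SHMT2, on the opposite strand, had 2.88, 3.56 and 1.45 CPM in FIR libraries and 10.9, 6.45 and 22.1 CPM in untreated libraries. Its log2 fold change was -2.31 (SE 0.39, edgeR adjusted p = 1.7e-04). Scarce opposite-strand genes also fell: AC137834.2 at the start of SHMT2 (log2 fold change -2.93), TEX21P beside MTHFD1 (-1.27) and AC005326.1 within ASNS (-1.56). ZNF697, beside PHGDH, and WASHC4, which overlaps ALDH1L2, did not pass. ZBTB25, which overlaps MTHFD1, had 32.5 ± 3.50 CPM in FIR cells and 33.3 ± 2.57 CPM in untreated cells, a log2 fold change of -0.03 (SE 0.10) that did not pass (edgeR adjusted p = 0.810). C12orf45, which overlaps ALDH1L2, rose to 66.4 ± 7.41 CPM in FIR cells, against 40.6 ± 1.39 CPM in untreated cells (edgeR adjusted p = 1.6e-05). AC079781.5, which overlaps nearly all of the span of ASNS on the same strand, had 1.72 ± 0.15 CPM in FIR cells and 1.19 ± 0.43 CPM in untreated cells and did not pass (edgeR adjusted p = 0.209). How reads in shared exons were assigned is not given in the sources used here.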
